A study of Homo sapiens with 6 samples.

Results

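The comparison described here set the SUMO-2/3 peaks of Ara-C-treated HL-60 cells against those of mock-treated cells at the start sites of coding genes. HL-60 is an acute myeloid leukemia (AML) cell line with a myeloid, promyelocyte-like character. Cells received water (mock) or 2 µM Ara-C (cytarabine) for 2 h, and chromatin of fixed cells was immunoprecipitated with 2 µg of SUMO2/3 antibody and sequenced. In both arms, material of 3 biological replicates was pooled into 1 library, so that each arm is 1 peak list of 1 cell line and no difference has a replicate check. Members were all peaks of the 2 lists, of the 6 libraries in the series, and the 19785 coding genes they could mark. The mock list held 44265 peaks and the Ara-C list 72279 peaks. A gene had a promoter peak when at least 1 bp of a peak lay from 2 kb upstream to 1 kb downstream of any of its transcription start sites (TSSs, 55823 in all). It was called kept with a peak in both lists, lost with a peak in mock only and gained with a peak under Ara-C only. Under this rule, 7994 genes had a promoter peak in at least 1 list.

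SUMO-2 and SUMO-3 are small ubiquitin-related proteins that are joined to lysines of other proteins by an E1 activating enzyme, an E2 conjugating enzyme and several E3 ligases, and removed by proteases such as the SENPs. Many of their targets are transcription factors, co-regulators and chromatin proteins, and SUMO on chromatin is known at active promoters, at histone genes and at genes transcribed by RNA polymerase III. Ara-C is a cytidine analogue that is taken up by nucleoside transporters, phosphorylated in the cell and built into DNA during replication. A peak in these lists is a run of input-subtracted signal above a fixed value. A missing peak thus says that no run met that value and the minimum length, and not that SUMO was absent. Only peak positions were used, without heights, p-values or reads. The depth of the libraries was not examined here, and width was the sole measure of strength. A difference in depth or scaling between the libraries cannot be told apart from a difference between the treatments.

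The sequences under the widest promoter peaks showed a feature that several of the kept genes shared. Of the widest kept peaks, those at HMGN4, AGBL5 and NDUFS7 lay at genes with tRNA genes as neighbours in RefSeq and held a sequence match to a tRNA gene element. No tRNA annotation of this build was used, so the peaks were not placed on tRNA genes directly. Stretches of 200 bases from the part shared by the mock and Ara-C peaks, outside every annotated exon, are given from GRCh37 (hg19), 5′ to 3′ on the strand of the coding gene, with capitals marking the match to the B box, the element inside tRNA genes that recruits RNA polymerase III factors.
HMGN4, chr6:26538251-26538450, plus strand: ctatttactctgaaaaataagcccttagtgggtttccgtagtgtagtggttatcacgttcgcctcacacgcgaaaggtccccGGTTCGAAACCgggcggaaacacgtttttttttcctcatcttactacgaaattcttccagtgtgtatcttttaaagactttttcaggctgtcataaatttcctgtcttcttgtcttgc
AGBL5, chr2:27274091-27274290, plus strand: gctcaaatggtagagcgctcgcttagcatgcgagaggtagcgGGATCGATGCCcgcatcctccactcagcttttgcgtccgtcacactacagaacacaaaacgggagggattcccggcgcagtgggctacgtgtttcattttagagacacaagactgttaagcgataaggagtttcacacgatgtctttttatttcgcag
NDUFS7, chr19:1383326-1383525, plus strand: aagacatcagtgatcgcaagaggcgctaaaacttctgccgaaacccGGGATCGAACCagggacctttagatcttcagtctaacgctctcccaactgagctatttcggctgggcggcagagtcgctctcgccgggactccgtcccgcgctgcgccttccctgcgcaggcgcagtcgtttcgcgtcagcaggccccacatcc
HMGN4 encodes a nucleosome-binding protein, AGBL5 a carboxypeptidase that trims tubulin and NDUFS7 a subunit of respiratory complex I. The stretches at HMGN4 and NDUFS7 lay upstream of the gene, and that at AGBL5 lay in an intron, upstream of an internal TSS.

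Stretches from the widest peaks found in a single list are given in the same way. They show what some of the widest losses and gains covered, and capitals mark matches to common promoter motifs. All stretches shown held a match, but others among the widest held none, such as those at the lost genes RELCH and CCDC88C and the gained genes RNMT and TMEM230. The lost genes ZNF689 and WDR55 come first and the gained genes KLF5, FANCC and SETD5 follow.
ZNF689, chr16:30621711-30621900, minus strand: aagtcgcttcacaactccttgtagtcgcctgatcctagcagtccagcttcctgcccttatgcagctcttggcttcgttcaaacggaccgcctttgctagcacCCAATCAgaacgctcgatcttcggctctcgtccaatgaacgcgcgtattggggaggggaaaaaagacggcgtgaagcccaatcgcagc
WDR55, chr5:140044253-140044452, plus strand: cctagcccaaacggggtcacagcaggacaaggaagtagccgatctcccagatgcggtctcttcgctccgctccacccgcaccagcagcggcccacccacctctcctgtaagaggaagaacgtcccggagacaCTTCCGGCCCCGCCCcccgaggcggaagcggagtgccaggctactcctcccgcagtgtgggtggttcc
KLF5, chr13:73632943-73633142, plus strand: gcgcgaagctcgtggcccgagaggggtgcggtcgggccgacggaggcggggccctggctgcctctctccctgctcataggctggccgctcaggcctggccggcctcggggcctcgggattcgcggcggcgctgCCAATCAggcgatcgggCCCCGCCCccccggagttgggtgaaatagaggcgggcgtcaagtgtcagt
FANCC, chr9:98079998-98080197, minus strand: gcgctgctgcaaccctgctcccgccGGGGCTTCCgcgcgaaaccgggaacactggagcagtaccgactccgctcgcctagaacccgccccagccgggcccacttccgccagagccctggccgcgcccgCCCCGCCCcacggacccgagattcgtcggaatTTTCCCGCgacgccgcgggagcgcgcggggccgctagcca
SETD5, chr3:9438486-9438685, plus strand: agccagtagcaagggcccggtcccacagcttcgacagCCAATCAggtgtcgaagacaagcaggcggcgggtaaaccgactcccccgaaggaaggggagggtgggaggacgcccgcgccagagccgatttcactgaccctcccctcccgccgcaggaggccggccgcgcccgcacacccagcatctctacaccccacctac
The stretch at ZNF689 held an NF-Y match and that at WDR55 an ETS match beside a GC box. The stretch at KLF5 held a GC box and an NF-Y match, that at FANCC a GC box, an E2F and an NF-κB match, and that at SETD5 an NF-Y match.

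Ara-C-treated cells had promoter peaks at more genes than mock-treated cells. A peak was present at 5002 genes in mock (25.3% of coding genes) and at 6111 under Ara-C (30.9%). In all, 3119 genes kept a peak (15.8%), 1883 lost it (9.52%) and 2992 gained it (15.1%). Thus 62.4% of the mock genes were marked again under Ara-C (Wilson 95% interval 61.0 to 63.7), whereas 20.2% of the genes without a mock peak were marked (19.6 to 20.9). These intervals, like all others here, cover counting error only.

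With peaks of 200 bp or more, the stricter set, Ara-C again marked more genes than mock, but gained genes now outnumbered kept genes. Mock had 3465 genes (17.5%) and Ara-C 4285 (21.7%), with 1998 kept (10.1%), 1467 lost (7.41%) and 2287 gained (11.6%). The kept share of mock genes was then 57.7% (56.0 to 59.3). Part of these losses were at the edge of calling, since 394 of the 1467 genes lost in the stricter set (26.9%) had an Ara-C peak of 150 bp, the usual minimum width. Likewise, 511 of the 2287 gained genes (22.3%) had a mock peak under 200 bp. A firm loss, a mock peak of 200 bp or more and no Ara-C peak of any width, was found at 1073 genes, and a firm gain at 1776.

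Keeping a peak was most frequent at genes with wide peaks. Of the mock genes whose widest promoter peak was 150 bp, 47.3% were kept (44.8 to 49.8), and of those with a peak of 400 bp or more, 86.6% (83.5 to 89.3). The steps between were 56.2%, 70.1% and 79.3%. Seen from the Ara-C list, the share with a mock peak rose from 33.4% to 84.2% over the same classes. Genes with 1 mock peak in their windows were kept in 58.0% of cases, and those with 3 or more in 86.9%. At 2108 of the 3119 kept genes (67.6%) a mock and an Ara-C peak shared bases, while at the other 1011 the lists marked different places near the gene's start sites.

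**Figure D1:**
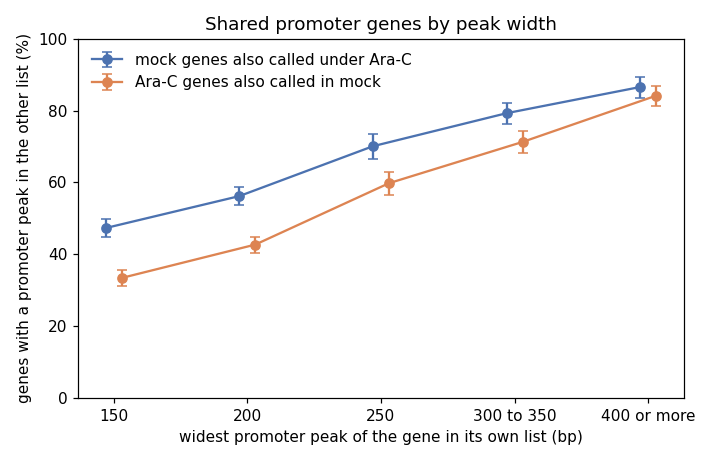
Share of genes with a promoter peak in the other list (percent, y axis) by the width of the gene's widest promoter peak in its own list (bp, x axis). Points are shares of mock genes (blue) and of Ara-C genes (orange), and bars are Wilson 95% intervals. Both rise with each width class, the mock genes from 47.3% to 86.6% and the Ara-C genes from 33.4% to 84.2%.

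Within promoter windows, peaks found in both lists lay close to the TSS. Of the 5460 mock peaks in promoter windows, 1983 overlapped an Ara-C peak (36.3%, 35.1 to 37.6), against 5139 of the mock peaks elsewhere (13.2%), so that most overlapped mock peaks lay outside promoter windows. Of the 6980 Ara-C peaks in windows, 28.2% overlapped a mock peak, against 7.85% elsewhere. Overlapped mock peaks had a median distance of 177 bp from peak midpoint to the nearest TSS, and 59.5% lay within 250 bp of it. Mock peaks at lost genes lay further away, at a median of 367 bp with 39.7% within 250 bp. Mock peaks at kept genes without overlap lay furthest, at a median of 485 bp with 30.4% within 250 bp. Ara-C peaks at gained genes were at 426 bp and 36.1%. The 250 bp just upstream of the TSS held 43.3% of the overlapped mock peaks, more than any other stretch of the window.

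**Figure D2:**
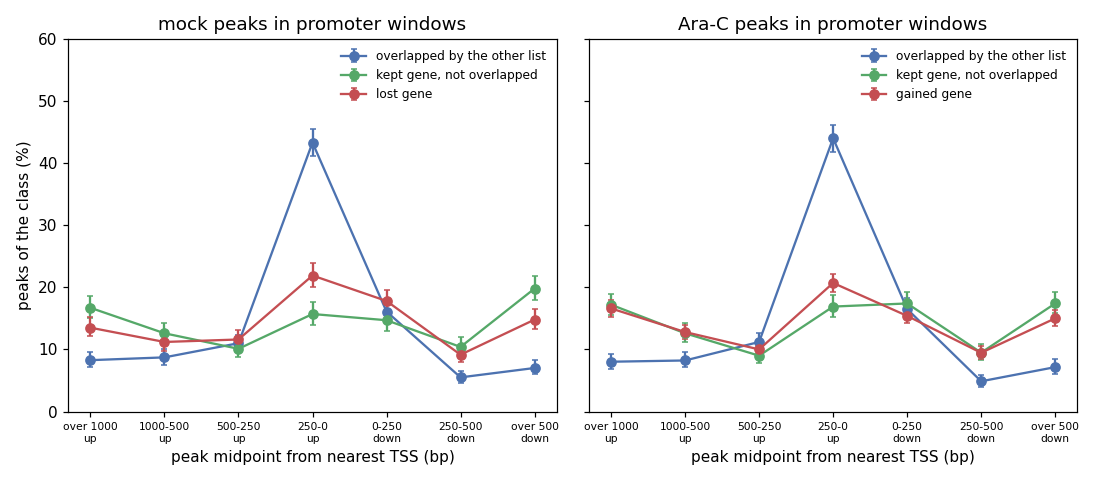
Position of promoter-window peaks relative to the nearest TSS (bp, x axis, upstream to downstream) as a share of the peaks of each class (percent, y axis), for the mock list (left) and the Ara-C list (right). Bars are Wilson 95% intervals. Peaks overlapped by the other list gather in the 250 bp upstream of the TSS (43.3% of the mock peaks). Mock peaks at lost genes (21.9%) and at kept genes without overlap (15.7%) gather there less.

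The overlapping peaks had similar widths in both lists. Among 1987 distinct overlapping pairs in promoter windows, the Ara-C peak was wider in 876 (44.1%), equal in 361 (18.2%) and narrower in 750 (37.7%). Mean width was 289 bp in mock and 302 bp under Ara-C, and the median of both was 250 bp. The difference of the pairs had a mean of 13.5 bp with an SD of 174 bp across pairs, which are not replicates. Peak midpoints moved by 50 bp, the bin size, or less in 51.5% of the pairs.

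The distance from lost and gained promoters to the other list was also measured, and short gaps are in large part excluded by the rule itself. The gap from a lost gene's mock peak to the nearest Ara-C peak had a median of 10301 bp and was 5 kb or less for 25.8% of the 1883 genes. For gained genes the median gap was 16001 bp, and 17.6% were within 5 kb of a mock peak. Gaps of gained genes were measured to the mock list, which is the sparser.

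The tRNA neighbours of HMGN4, AGBL5 and NDUFS7 were then followed in all coding genes. RefSeq placed a tRNA gene from 2 kb upstream to 1 kb downstream of the 5′ end of 48 coding genes, out of 19090 matched by symbol. Of these 48 genes, 38 kept a promoter peak (79.2%, against 15.8% of all coding genes), 1 lost it (2.08%, against 9.52%), 2 gained it (4.17%, against 15.1%) and 7 had none. Thus 38 of the 39 mock genes with a tRNA neighbour were kept (97.4%, 86.8 to 99.5), and 62.0% of the other mock genes (60.7 to 63.4). This grouping was made after the sequences had been read, so that the counts describe these lists and no test was made. The tRNA genes in question numbered 55, and the 48 coding genes had 53 distinct mock peaks and 58 distinct Ara-C peaks, some shared by neighbours such as POLG and POLGARF.

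Coding genes with a tRNA neighbour had wide promoter peaks, with a median widest mock peak of 350 bp against 200 bp at all mock genes. Within the narrower mock peaks, of 150 to 250 bp, 10 of 11 genes with a tRNA neighbour were kept (90.9%, 62.3 to 98.4) and 1964 of 3570 of the others (53.4% to 56.6%). From 300 bp upwards, 28 of 28 were kept, against 82.0% of the other genes. In 37 of the 38 kept genes the mock and Ara-C peaks overlapped. The exception was NCOA7, a nuclear receptor coactivator.

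The kept genes beside tRNA genes had unrelated products. At AGBL5, a mock peak of 1000 bp (chromosome 2, 27273401 to 27274400) met an Ara-C peak of 800 bp (27273551 to 27274350), next to tRNA genes for alanine and tyrosine. At HMGN4, the widths were 900 bp in mock (chromosome 6, 26537601 to 26538500) and 1000 bp under Ara-C (26537451 to 26538450), next to tRNA genes for valine and arginine. At NDUFS7, the widths were 650 bp (chromosome 19, 1383301 to 1383950) and 850 bp (1383101 to 1383950), next to tRNA genes for phenylalanine and asparagine. In all 3 genes the peaks of both lists overlapped over most of their length. TRIM41, a RING-type ubiquitin ligase, had 700 bp in mock and 600 bp under Ara-C. POLR3E, a subunit of RNA polymerase III itself, had 400 bp and 250 bp. The lost gene was SLC27A4, a fatty acid transporter, with a mock peak of 250 bp. The gained genes were CTNNA3, an alpha-catenin, with an Ara-C peak of 200 bp and CFAP418 with one at the minimum width.

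**Figure D3:**
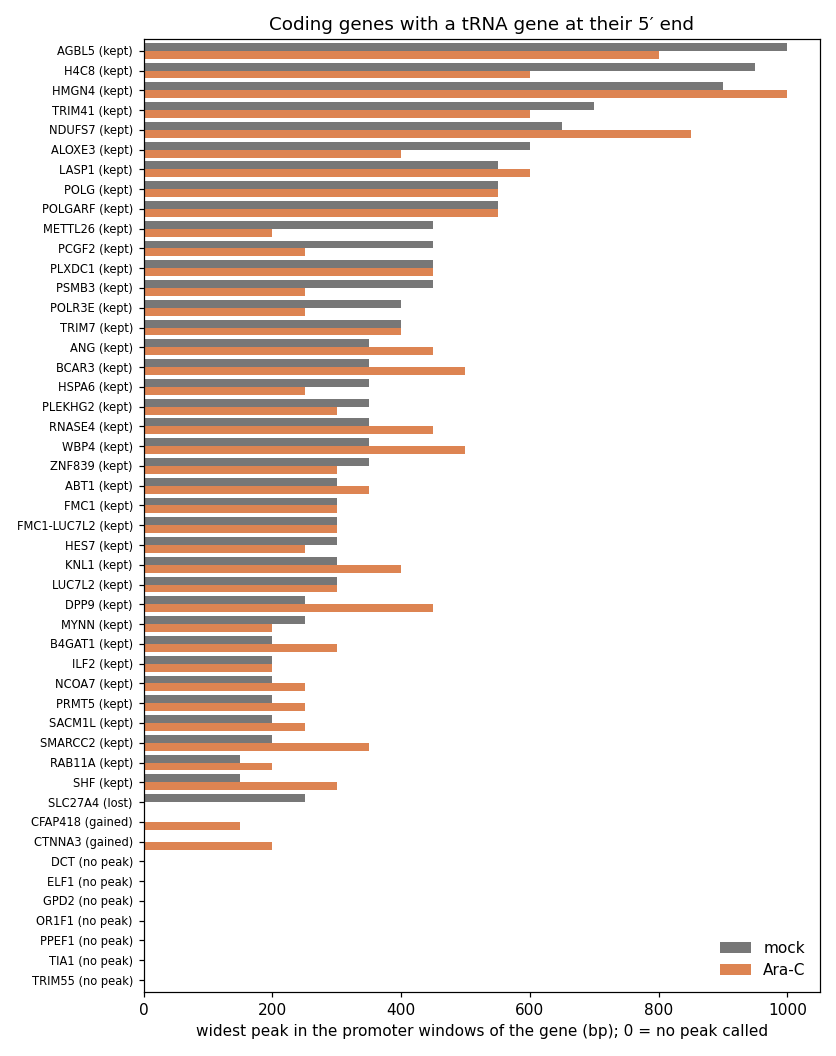
Widest promoter peak (bp, x axis) in mock (grey) and under Ara-C (orange) at the 48 coding genes with a tRNA gene at their 5′ end, with the state of each gene in brackets. A width of 0 means that no peak was called. The 38 kept genes have bars in both lists, SLC27A4 in mock only, CTNNA3 and CFAP418 under Ara-C only, and 7 genes in neither.

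The B box was then searched in all peaks, on both strands and by its consensus. A match was found in 153 mock peaks (0.346%), of which 124 overlapped an Ara-C peak (81.0%, 74.1 to 86.5), against 15.9% of the mock peaks without it. From the Ara-C side, 122 of 173 peaks with a match overlapped a mock peak (70.5%, 63.3 to 76.8), against 9.67%. In promoter windows alone the gap was smaller, with 73.1% of the 52 mock peaks with a match overlapped (59.7 to 83.2), against 36.0% of those without. Among mock peaks of 400 bp or more in the genome, 55 of 55 with a match overlapped an Ara-C peak, against 71.9% of those without. For comparison, 62 of 19781 promoter sequences of 300 bases held the match (0.313%). Of the peaks in promoter windows, of any width, 0.952% in mock and 0.788% under Ara-C held it.

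The other kept genes with the widest peaks had varied products. MPO, which encodes the myeloperoxidase of the azurophil granule (chromosome 17, 56347216 to 56358296, minus strand), had mock peaks of 550, 550, 650 and 150 bp in its windows and Ara-C peaks of 750 and 750 bp. The peaks over the TSS ran from 56358051 to 56358600 in mock and from 56357901 to 56358650 under Ara-C. CBFA2T3, a transcriptional corepressor of blood progenitors, had peaks of 750 and 700 bp that both began at 89045101 on chromosome 16, upstream of the gene. JUN, a subunit of AP-1, changed in layout, with mock peaks of 650 bp upstream and 200 bp in the UTR exon and under Ara-C a peak of 700 bp in the exon and 2 peaks of 150 bp upstream.

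HMGB1, a chromatin protein, and USPL1, a SUMO protease, start from a shared promoter on chromosome 13. It held peaks of 700 bp in mock (31191551 to 31192250) and 750 bp under Ara-C (31191501 to 31192250). TSPOAP1 had the widest pair, with mock peaks of 2150 and 1950 bp and an Ara-C peak of 4050 bp over its upstream region. MYC and TRIB1 had 6 and 5 mock peaks and 7 and 5 Ara-C peaks, in the part of chromosome 8 around MYC where both lists were dense. That part held 1073 mock and 1165 Ara-C peaks but 32 coding genes, of which 4 were kept, 1 lost and 1 gained.

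Among lost genes the widest mock peak, of 700 bp (chromosome 16, 30621201 to 30621900), covered a TSS of ZNF689, a zinc finger gene. RELCH, which works in cholesterol transport, CHPF, a chondroitin-polymerizing factor, and CCDC88C each had a mock peak of 650 bp. FBP1, the fructose-1,6-bisphosphatase of gluconeogenesis, had one of 600 bp. WDR55 and the ubiquitin ligase gene ARIH1 had 550 bp, and SIRPB2, ZSCAN30 and PLPP6 had 500 bp. No Ara-C peak of any width lay in the windows of these genes. These widths are above those of most mock peaks at lost genes, whose median was 200 bp.

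Among gained genes the widest Ara-C peak was 750 bp (chromosome 1, 155145451 to 155146200) at KRTCAP2, a subunit of the oligosaccharyltransferase, and its divergent neighbour TRIM46. FAM210A and RNMT, the mRNA cap methyltransferase, shared a peak of 700 bp on chromosome 18 (13726151 to 13726850). KLF5, a Krüppel-like transcription factor, had 700 bp over an internal TSS. MRPL24, a protein of the mitochondrial ribosome, and ZBTB5 had 650 bp. The Fanconi anemia gene FANCC (chromosome 9, 98079651 to 98080250), RPS19BP1, AMN1, TMEM230 and SETD5 had 600 bp. None of these genes had a mock peak in its windows.

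The SUMO pathway itself had more gains than losses, as did all coding genes (15.1% gained, 9.52% lost). Of 27 genes, 3 kept a peak, 2 lost it, 10 gained it (37.0%, against 15.1% of coding genes) and 12 had none. In the stricter set 9 were gained, 1 was lost and 2 were kept, with 10.1% kept, 7.41% lost and 11.6% gained of all coding genes. The gained peaks were narrow, 350 bp at most. SUMO2, SUMO3 and SUMO4, genes of the modifiers, had no peak in either list. Of the E1 subunits, UBA2 had an Ara-C peak of 150 bp and SAE1 had none.

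Of the E3 ligases, PIAS2 gained 3 peaks of 350, 250 and 200 bp and PIAS3 gained peaks of 250 and 200 bp. PIAS4 lost a mock peak of 200 bp, and PIAS1, RANBP2, ZNF451 and NSMCE2 had none. Of the proteases, SENP1 was kept with 500 bp in mock and 450 bp under Ara-C, and USPL1 was kept as above. SENP3 and SENP7 gained a peak of 200 bp each, and SENP2, SENP5 and SENP6 had none. DESI1 gained and DESI2 lost a peak of 150 bp. The SUMO-targeted ubiquitin ligase gene RNF4 was kept and RNF111 gained a peak of 200 bp, and PML, the scaffold of the nuclear bodies rich in SUMO, had none. These genes had a median of 3 start sites, and of all genes with 2 or 3 start sites, 15.9% kept and 15.5% gained a peak.

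Genes of cytarabine uptake and metabolism were mixed. Of 23 genes, 3 were kept, 4 lost, 6 gained (26.1%, against 15.1% of coding genes) and 10 without a peak. They had a median of 4 start sites, and of all genes with 4 or more, 22.8% kept, 11.2% lost and 18.7% gained a peak. The equilibrative transporter SLC29A1, the main entry route of Ara-C, was kept, but its mock peak of 250 bp lay 1857 bp upstream and its Ara-C peak of 200 bp lay 577 bp downstream of a TSS. SLC29A2 likewise had peaks of 200 bp at separate places. The concentrative transporter SLC28A3 gained a peak of 200 bp, and SLC28A1 had none. No peak in either list was found at DCK, the kinase of the first activating step, at CDA, the deaminase that inactivates Ara-C, or at SAMHD1, which hydrolyses its triphosphate.

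The ribonucleotide reductase genes all gained a peak, RRM2 with 350 bp over its TSS and a second peak of 150 bp, RRM2B with 250 bp and RRM1 with 150 bp. RRM1 did not pass the stricter width. TYMS, the thymidylate synthase, and the nucleotidase NT5C3A gained peaks of 200 bp. Lost peaks were at CTPS1, the CTP synthase (300 bp), DUT, the dUTPase (200 and 150 bp), the dCMP deaminase DCTD (150 bp) and the nucleoside diphosphate kinase NME2 (250 bp). Its neighbour NME1 was kept, with overlapping peaks of 400 bp in mock and 550 bp under Ara-C. CMPK1, CTPS2, NT5C2, POLB and TK1 had none.

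Replication-dependent histone genes had the largest share of kept genes over all genes of the family among the 36 families, but not over mock genes, where proteasome genes were at 87.5%. Of 64 genes, 33 were kept, 6 lost, 5 gained and 20 without a peak, with 15.8% kept, 9.52% lost and 15.1% gained of all coding genes. Thus 84.6% of the mock genes were marked again (70.3 to 92.8), against 62.4% of all mock genes. In the stricter set the share was 77.1% (61.0 to 87.9), against 57.7%. The histone genes had wide mock peaks, with a median widest peak of 350 bp, and 27 of the kept genes had overlapping peaks. Of all mock genes with a widest peak of 300 to 350 bp, 79.3% were kept, a share inside the interval of 70.3 to 92.8. Histone genes share promoters, and the 39 mock genes rested on 50 distinct peaks. Chromosome 6 holds 51 of the 64 genes, between 25723625 and 27861669, and these made up 29 of the kept and all 6 of the lost genes. H4C8 had a mock peak of 950 bp and an Ara-C peak of 600 bp over its TSS, with a tRNA gene at its 5′ end, and H2AC11 and H2BC11 shared peaks of 550 and 600 bp. H3C12 lost a peak of 350 bp, and H2AC7 gained one of 250 bp.

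**Figure D4:**
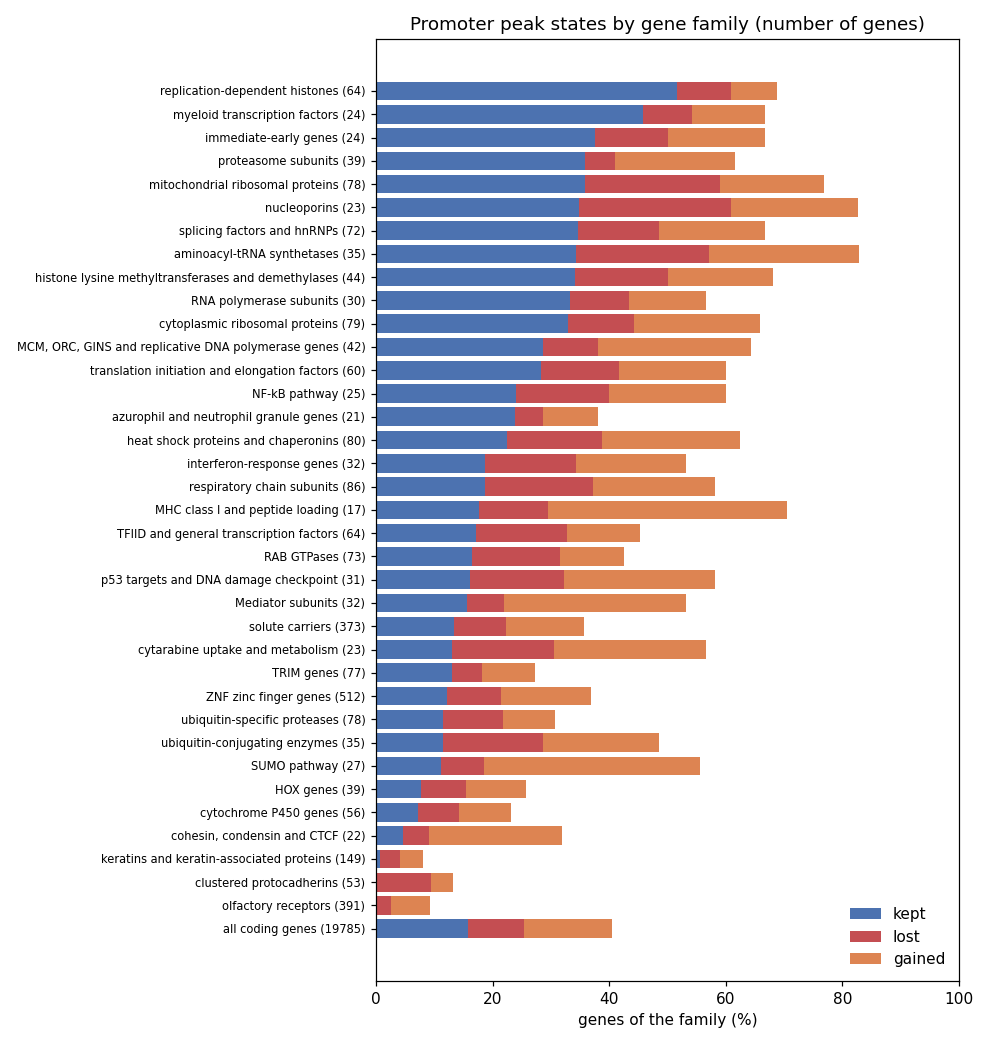
Share of the genes of each family (percent, x axis) that kept (blue), lost (red) or gained (orange) a promoter peak, with the number of genes in brackets and all coding genes in the bottom row. Families are ordered by the kept share. Replication-dependent histones have the longest blue bar and olfactory receptors and keratins the shortest bars in all, and the SUMO pathway and MHC class I genes have long orange bars.

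Genes of protein synthesis were marked more often in mock (41.7% to 59.0% of the genes of each family) than all coding genes (25.3%), and they were both kept and lost in larger shares than the 15.8% and 9.52% of all coding genes, with 15.1% of all genes gained. Of 79 cytoplasmic ribosomal protein genes, 26 were kept, 9 lost and 17 gained (kept share of mock genes 74.3%, 57.9 to 85.8). RPL5 kept peaks of 500 and 400 bp and RPLP0 of 400 and 450 bp, RPS3 lost a peak of 300 bp and RPL15 gained one of 400 bp. Of 78 mitochondrial ribosomal protein genes, 28 were kept, 18 lost and 14 gained (60.9%, 46.5 to 73.6). Of 60 translation factor genes, 17 were kept, 8 lost and 11 gained, and of 35 aminoacyl-tRNA synthetase genes, 12, 8 and 9. The intervals of these kept shares all included 62.4%, the value of all mock genes.

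Genes of protein folding and turnover are set against the same 15.8% kept, 9.52% lost and 15.1% gained. Of 39 proteasome genes, 14 were kept, 2 lost and 8 gained (kept share of mock genes 87.5%, 64.0 to 96.5). PSMD4, a ubiquitin receptor of the regulatory particle, kept peaks of 300 and 600 bp, PSMB4 lost a peak of 250 bp and PSMA1 gained one of 400 bp. Of 80 heat shock protein and chaperonin genes, 18 were kept, 13 lost and 19 gained. HSPD1 and HSPE1 kept peaks of 350 bp over their shared promoter in both lists, whereas HSPA5 and HSPA9 gained peaks of 350 and 400 bp. Of 35 ubiquitin-conjugating enzyme genes, 4 were kept, 6 lost and 7 gained, and of 78 ubiquitin-specific protease genes, 9, 8 and 7 (8.97% gained). In the stricter set the heat shock and chaperonin genes had 10 kept and 11 lost, with 10.1% kept and 7.41% lost of all coding genes.

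The next counts are to be compared with 15.8% kept, 9.52% lost and 15.1% gained over all coding genes. Splicing factor genes had 25 kept, 10 lost and 13 gained of 72, with a gained share of 18.1%. HNRNPF had 6 mock peaks and 4 Ara-C peaks, the widest of 550 bp in each list, SRSF1 lost 3 peaks of 350, 250 and 200 bp, and HNRNPA2B1 gained 4 peaks of up to 350 bp. Respiratory chain genes had 16 kept, 16 lost and 18 gained of 86 (20.9% gained). Of 23 nucleoporin genes, 8 were kept, 6 lost and 5 gained, but in the stricter set 3 were kept and 7 lost (10.1% kept and 7.41% lost of all coding genes). Of 42 genes for MCM, ORC, GINS and replicative polymerase subunits, which act in DNA replication, 12 were kept, 4 lost and 11 gained (26.2%, against 15.1% of coding genes), and 38.1% had a mock peak, against 25.3%. The gained genes included MCM3 and MCM6 (350 bp each) and MCM7 (300 bp).

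Transcription and chromatin families are again compared with 15.8% kept, 9.52% lost and 15.1% gained of coding genes. In them, 10 of 30 RNA polymerase subunit genes were kept, 3 lost and 4 gained. Mediator genes had 5 kept, 2 lost and 10 gained of 32 (31.2% gained, against 15.1% of coding genes), with MED26 at 400 bp the widest gain, but in the stricter set 6 were gained (18.8%, against 11.6%). Of 64 genes of TFIID and the general factors, 11 were kept, 10 lost and 8 gained (12.5% gained), and 7 were kept and 8 lost in the stricter set (10.1% kept and 7.41% lost of all coding genes). Of 44 histone lysine methyltransferase and demethylase genes, 15 were kept, 7 lost and 8 gained, with KDM3A kept (400 and 450 bp), NSD1 lost (300 bp) and SETD5 gained (600 bp). Of 22 cohesin and condensin genes and CTCF, 2 had a mock peak (9.09%, against 25.3% of coding genes), STAG1 kept and STAG2 lost. A further 5 were gained (22.7%, against 15.1%), among them SMC3 with a peak of 550 bp.

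Stress-response families had both losses and gains, to be read against 15.8% kept, 9.52% lost and 15.1% gained of all coding genes. The gained shares were 16.7% for immediate-early, 18.8% for interferon-response and 25.8% for p53 and checkpoint genes. Of 24 immediate-early genes, 9 were kept, 3 lost and 4 gained. In the stricter set, with 10.1% kept, 7.41% lost and 11.6% gained of all coding genes, 5 of these were kept, 1 was lost and 6 were gained, so the count of gains rested partly on mock peaks of 150 bp. DUSP1, a MAP kinase phosphatase, kept peaks of 550 bp in mock and 200 bp under Ara-C. NF-κB pathway genes had 6 kept, 4 lost and 5 gained of 25, with BIRC3 lost (250 bp) and TNFAIP3 gained (200 and 150 bp). Interferon-response genes had 6, 5 and 6 of 32, with IFIT1 and IFIT3 lost (200 and 150 bp). In the stricter set 2 of the 32 were kept, 3 lost and 7 gained (21.9% gained, against 11.6% of all coding genes). Genes of p53 and the DNA damage checkpoint had 5 kept, 5 lost and 8 gained of 31. CDKN1A, the p21 inhibitor of cyclin-dependent kinases, gained a peak of 400 bp centered 402 bp downstream of a TSS, CHEK1 and MDM2 lost peaks of 150 bp, and ATR kept peaks of 300 and 200 bp.

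Of 17 genes of MHC class I and peptide loading, 3 were kept, 2 lost and 7 gained (41.2%, against 15.1%). HLA-B gained a peak of 450 bp, HLA-E one of 350 bp and TAP1, a subunit of the peptide transporter, 3 peaks of up to 300 bp. CALR, the chaperone calreticulin, kept peaks of 500 and 550 bp in mock and 500 and 800 bp under Ara-C. HLA genes hold near-identical stretches and only uniquely placed reads were used, so the calls at HLA-B and HLA-E are uncertain.

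Myeloid genes were counted as well, which cannot check the identity of the cells, since families of other kinds were marked as often. In mock, nucleoporin and histone genes had peaks at 60.9% each and mitochondrial ribosomal protein genes at 59.0%. Of 24 myeloid transcription factor genes, 11 were kept, 2 lost and 3 gained (kept share of mock genes 84.6%, 57.8 to 95.7), and 54.2% had a mock peak, against 25.3% of coding genes. This interval included the 62.4% of all mock genes. In the stricter set 7 were kept, 3 lost and 5 gained. With the 5′ end of the gene only, their kept share fell close to the 59.6% of all mock genes in that setting. They had a median of 3.5 start sites, and of all genes with 4 or more, 22.8% kept a peak. RUNX1, GFI1 and LMO2 were kept, RARA and GATA2 lost peaks of 250 and 200 bp, and CEBPB, CEBPA and ERG gained peaks of 300, 250 and 250 bp. Of 21 granule genes, 5 were kept, with MPO, AZU1, BPI and CTSG among them, 1 was lost, 2 were gained and 13 had none. With a mock peak at 28.6% of them, the granule genes as a list were near the 25.3% of all coding genes. Among families of other tissues, olfactory receptors and keratins were marked less often than the 15.8% kept, 9.52% lost and 15.1% gained of all coding genes. Of 391 olfactory receptor genes, 0 were kept, 10 lost and 26 gained (6.65% gained, against 15.1%). Of 149 keratin genes, 1 was kept, 5 lost and 6 gained, and of 53 clustered protocadherin genes, 0, 5 and 2, with the lost share of the latter near that of all coding genes. Most of the mock peaks at these keratin and protocadherin genes were at the minimum width (5 of 6 and 4 of 5 genes).

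The remaining families can be read against 15.8% kept, 9.52% lost and 15.1% gained of all coding genes. ZNF zinc finger genes had 62 kept, 48 lost and 79 gained of 512 (kept share of mock genes 56.4%, 47.0 to 65.3), with ZNF143 kept at 350 and 400 bp. Solute carriers had 50, 33 and 50 of 373, RAB GTPases 12, 11 and 8 of 73 and TRIM genes 10, 4 and 7 of 77. The gained shares of solute carriers (13.4%) and RAB genes (11.0%) were near or below that of all genes, and in the stricter set RAB genes had 7 kept and 10 lost, with 10.1% kept and 7.41% lost of all coding genes. HOX genes had 3, 3 and 4 of 39, with HOXA10 kept at 400 and 300 bp, and cytochrome P450 genes had 4, 4 and 5 of 56. None of the family counts has a test, and members that start from a shared promoter are not independent.

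Marked genes had promoters rich in CpG whichever list marked them. In the sequence from 250 bases upstream to 50 bases downstream of the gene's 5′ end, 74.6% of kept genes (73.1 to 76.1), 69.8% of lost genes (67.7 to 71.8) and 66.2% of gained genes (64.5 to 67.9) had a ratio of observed to expected CpG of at least 0.6, against 49.9% of genes without a peak. Median GC content was 62.0%, 62.0%, 61.3% and 59.0% in the same order. Within CpG-rich promoters 63.9% of the mock genes were kept (62.3 to 65.5), and within the others 58.2% (55.6 to 60.8). Genes with a divergent neighbour were kept in 27.1% of cases, lost in 13.6% and gained in 20.1%, against 14.0%, 8.86% and 14.3% of the other genes.

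Promoter motifs were searched on both strands of the same 300 bases. The ETS motif CCGGAAG, whose factors act at many housekeeping and myeloid promoters, was present at 17.5% of kept genes (16.2 to 18.9), 14.9% of lost, 14.5% of gained and 8.98% of genes without a peak, against 11.7% of all coding genes. The ETS and PU.1 motifs share the bases GGAAG and were counted separately. The TATA box, searched as TATAAA, was present at 7.92% of kept, 7.70% of lost and 8.43% of gained genes and at 12.7% of genes without a peak (10.8% of all). The E-box CACGTG, bound by MYC and related factors, was present at 11.1% of kept, 10.2% of lost and 8.32% of gained genes (8.32% of all), and the GC box GGGCGGGG at 28.7%, 31.0% and 29.5% of kept, lost and gained genes (27.8% of all). The AP-1 motif TGANTCA was less frequent at kept genes (4.81%) than at genes without a peak (7.03%, 6.40% of all). The NF-κB motif GGGNNTTCC differed little, with 7.21% of kept, 7.54% of lost and 7.42% of gained genes (7.12% of all). Among myeloid factors, the PU.1 motif GAGGAAGT was at 2.82% of kept genes (2.43% of all) and the RUNX motif AACCACA at 3.78% (4.02% of all). The NF-Y motif CCAATCA was at 9.36% of kept genes (8.11% of all). Over all promoters the NRF1 motif GCGCATGCG was at 2.34%, the CREB/ATF motif TGACGTCA at 2.31%, the E2F motif TTTCCCGC at 1.97%, the YY1 motif AAGATGGCG at 1.86% and the ZNF143 motif ACTACAATT at 0.379%.

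**Figure D5:**
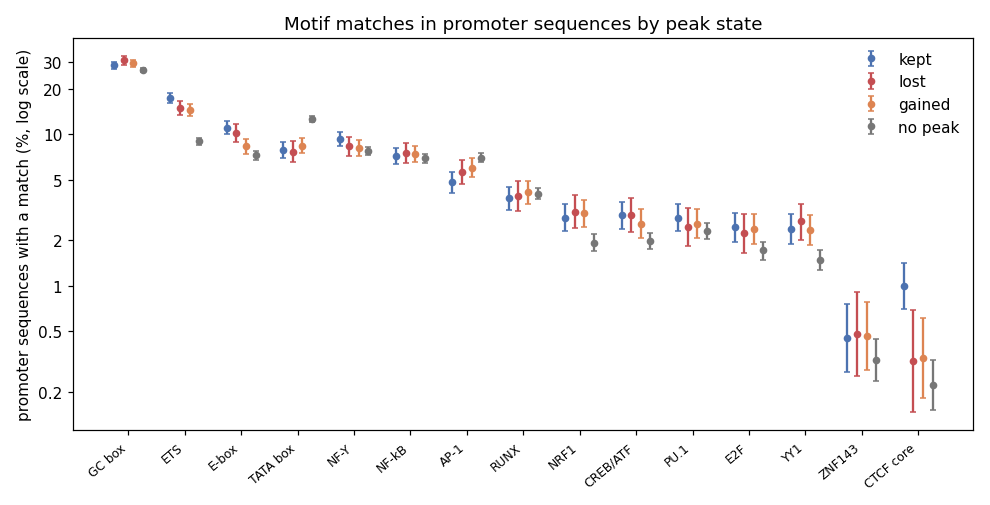
Share of promoter sequences with a match to each motif (percent, log scale, y axis) for kept (blue), lost (red) and gained (orange) genes and genes with no peak (grey). Bars are Wilson 95% intervals. ETS matches are at 17.5% of kept genes and 8.98% of genes without a peak, TATA box matches are at 7.92% and 12.7%, and the CTCF core is at 0.994% of kept genes and 0.319% of lost genes.

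The CTCF core, the motif of the factor that anchors chromatin loops, was rare in promoters (73 of 19781, 0.369%) but went with keeping. Of the genes with the motif, 37 had a mock peak and 31 of them were kept (83.8%, 68.9 to 92.3). In the central 150 bases of mock window peaks, it was present in 3.38% of those overlapped by an Ara-C peak, in 0.188% of those at kept genes without overlap and in 0.740% of those at lost genes, against 0.283% of the 150 bases upstream of all coding genes. The ETS motif had 10.8%, 3.45% and 4.28% in the same order, against 7.24%. The E2F motif, though rarer, differed by a larger ratio, with 1.82%, 0.377% and 0.687%, against 1.08%. The GC box had 9.03%, 4.52% and 5.18%, against 22.6%. The median GC content of these peaks was 62.7%, 56.0% and 58.0%, against 62.0%. Examples with the motif in capitals, in the part shared by a mock and an Ara-C peak, are the CTCF core at ESRRA and REPS1 and the ETS motif at LASP1 and ZBTB45.
ESRRA, chr11:64071919-64071992, plus strand: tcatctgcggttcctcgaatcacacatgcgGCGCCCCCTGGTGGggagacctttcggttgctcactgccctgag
REPS1, chr6:139309475-139309548, minus strand: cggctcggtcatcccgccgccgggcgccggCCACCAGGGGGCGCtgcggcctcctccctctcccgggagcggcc
LASP1, chr17:37025851-37025917, plus strand: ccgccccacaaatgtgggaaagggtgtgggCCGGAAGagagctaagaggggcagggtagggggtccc
ZBTB45, chr19:59031343-59031409, minus strand: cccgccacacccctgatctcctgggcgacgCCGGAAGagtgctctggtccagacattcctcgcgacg
At ESRRA, an orphan nuclear receptor gene, both peaks were 550 bp wide, and at REPS1 they were 650 bp in mock and 500 bp under Ara-C. At LASP1, which also has a tRNA neighbour, they were 550 and 600 bp, and at ZBTB45 they were 550 bp each. A match is a description of the sequence and says nothing of binding.

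Chromosomes differed in both the share of marked genes and the share kept. Mock promoter peaks were found at 45.0% of the genes of chromosome 18 and at 6.84% of those of chromosome X and 8.29% of those of chromosome 8. The kept share of mock genes ran from 45.8% on chromosome X to 74.9% on chromosome 22. Chromosome 6, which carries the main histone and tRNA gene clusters, had 70.1% (65.2 to 74.5).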

How the data were processed

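SUMO-2/3 ChIP-seq was done in mock- and Ara-C-treated HL-60 cells, 1 pooled library each. Per the study's methods and the submitters' processing notes, the authors aligned single-end reads to hg19 with CASAVA 1.8.2. With Pasha, they kept uniquely placed reads, removed piles above 5 (mock) or 4 (Ara-C) reads, extended reads to 210 bp, counted them in 50 bp bins, scaled the libraries and subtracted the input. WigPeakCaller then called runs above a value of 32, joining runs separated by no more than 100 bp and keeping those longer than 100 bp. The deposited files hold peak positions, so that 150 bp is the usual minimum width. The peaks of the daunorubicin (DNR) library and the 3 inputs were not used here.

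Genes were the coding genes of GENCODE 44 as lifted to GRCh37, with TSSs of basic protein-coding transcripts. tRNA genes came from RefSeq (GRCh38.p14) as neighbours of genes matched by symbol, with the strand from GENCODE. Promoter states, widths, motifs and overlaps (at least 1 bp) were computed in Python 3.11.15 with numpy 2.4.6 and pandas 2.3.3. The overlap count was checked with bedtools 2.31.1 (0 differences), and the states were tested on simulated data. Shares carry Wilson 95% intervals. With 1 library per arm, no test between arms was made. The genes named were the 10 with the widest peaks per state (for kept genes, the smaller of both widths), up to 4 per state in each of 36 families by the same order, and the genes of the SUMO and cytarabine lists, of which a few are not reported here. Genes named for a tRNA neighbour or a motif were picked once values were known, as was the tRNA grouping. The other members and lists were chosen with earlier results of these data known. Alternatives were a width of 200 bp or more in both lists or under Ara-C only, peak midpoints, other windows, the 5′ end of the gene only, a 50% overlap and leaving out the dense part of chromosome 8 around MYC.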

Additional observations from a re-analysis of the deposited data

How the results depend on the processing

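Of the 50 values of the main comparisons under 8 alternatives, 37 stayed close to the reported ones (counts within 1.5 times, shares within their interval). With peaks of 200 bp or more, kept genes fell to 1998 and the kept share of mock genes to 57.7%, while the overlapped share of mock promoter peaks was 41.3%. With this width for Ara-C peaks only, gained genes were 1776, the kept share was 50.2% and the overlapped share 31.0%. Lost genes were then 2493, more than the gained, and Ara-C marked 4285 genes against 5002 in mock. This setting drops narrow peaks from the Ara-C list alone. Windows from 2 kb upstream to the TSS gave a kept share of 60.3% and an overlapped share of 40.9%, windows of 1 kb on either side gave 60.5% and 38.0%, and the 5′ end of the gene only gave 59.6% and 38.3%. An overlap of 50% of the peak gave 30.9%. In these settings fewer peaks or bases count, and no further cause was tested. Of the family shares, 100 of 108 stayed within their interval, 6 moved down and 2 up. This count cannot show that family shares were stable, since intervals of small families are wide (23.1 to 88.2 for the SUMO pathway). Shifts in both directions counted as within. Heat shock and chaperonin genes went from 58.1% to 41.9% with the width for Ara-C peaks only. Histone lysine methyltransferase and demethylase genes went from 68.2% to 77.8% with the 5′ end only. The kept share of mock genes beside tRNA genes was 97.4% in the main setting and from 94.3% to 97.4% under 7 alternatives, which were chosen after seeing the data.

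No paired analysis was possible because mock and Ara-C are a single pooled library each, and leaving out a replicate was not possible for the same reason. Depth, scaling and pile thresholds differ between the libraries or were not examined, and they cannot be told apart from the treatment. Width is a coarse measure in steps of 50 bp, and most peaks sit at or near the minimum. tRNA and histone genes include near-identical copies.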
